A study of Sus scrofa with 6 samples.

Results

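The BTG4 and CCR4-NOT deadenylase genes were followed through the RNA-seq of porcine oocytes matured in vitro under control conditions, under heat stress, or under heat stress with nicotinamide mononucleotide (NMN), a precursor of NAD+. The members were 10 genes taken by symbol, namely BTG4, CNOT1, CNOT2, CNOT3, CNOT6, CNOT6L, CNOT7, CNOT8, TOB1 and TOB2. All 10 were among the 29861 genes with an FPKM value (fragments scaled to transcript length and to library size). Of the 10, 8 were among the 4713 genes that reached a mean FPKM of 1 over the 6 samples and were tested, and CNOT1 and CNOT2 are given as values only.

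Each of the 3 groups held 2 samples. The methods of the study describe ovaries from an abattoir and pools of oocytes. Heat-stressed oocytes were kept at the raised temperature for the first 24 h of culture and then returned to the normal one, NMN was present during the heat, and control oocytes stayed at the normal temperature. The labels name the germinal vesicle stage and 24 h, whereas the methods describe sequencing of metaphase II oocytes, so the stage is not settled here. There was no group with NMN alone, and in the comparison of heat stress+NMN with control the heat and the NMN cannot be told apart. Nothing in the labels says that the 2 samples of a group came from separate cultures, so P-values measure the spread between these samples, which may be technical. In pooled oocytes, fewer cells expressing a gene and less RNA per cell cannot be told apart. The labels describe mRNA isolation, and if that step selected by poly(A) tail, FPKM cannot tell tail length from RNA amount.

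CCR4-NOT is the main cytoplasmic complex that shortens the poly(A) tails of mRNAs. CNOT1 is its scaffold, CNOT2 and CNOT3 form a module on that scaffold, and the tail is removed by a CCR4-type nuclease (CNOT6 or CNOT6L) and a CAF1-type nuclease (CNOT7 or CNOT8). BTG4 is an adaptor of the BTG/TOB family made in oocytes that brings the complex to maternal mRNAs as they are cleared during meiotic maturation. TOB1 and TOB2 are adaptors of the same family that bind both the CAF1-type nuclease and poly(A)-binding protein.

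Oocyte identity and contamination were checked first. Of 10 oocyte markers, 9 had a mean FPKM of at least 1, with a summed level of 2199 to 2612 FPKM per sample, and DDX4 was near 0. Most of this sum was BMP15 and GDF9, and single markers moved with the groups, not all in the same direction. BMP15 was at 1606 and 1646 FPKM in control, 1861 and 1940 FPKM under heat stress and 1820 and 1751 FPKM with NMN. Its heated samples all lay above both control samples. DAZL and OOEP overlapped between all groups. GDF9, an oocyte growth factor, was at 731.8 and 776.6 FPKM in control, 477 and 532 FPKM under heat stress and 435 and 353 FPKM with NMN. ZAR1, a maternal-effect gene, was at 17.3 and 23.8 FPKM in control, 11.8 and 13.8 FPKM under heat stress and 4.30 and 2.84 FPKM with NMN. ZP3, a zona pellucida gene, was at 24.7 and 26.3 FPKM in control, 12.3 and 14.2 FPKM under heat stress and 11.9 and 8.38 FPKM with NMN. The part of these differences in the results for the members was not tested. Of 13 cumulus and granulosa markers, 12 were in the table, 1 of these (INHBA) reached a mean FPKM of 1, and 2 (AMH and INHA) were listed at 0 in every sample. The 11 measured cumulus and granulosa markers other than INHBA summed to 0.814 to 1.59 FPKM, and with INHBA to 5.17 to 17.4 FPKM. INHBA was at 16.4 and 13.2 FPKM in control, 10.2 and 6.44 FPKM under heat stress and 4.35 and 10.2 FPKM with NMN. Its control samples lay above all heated samples. Which cells its RNA came from was not tested. Mitochondrial genes took 61.7% to 74.7% of the FPKM sum of a sample. The NMN samples, at 74.2% and 74.7%, lay above all other samples in this share. The gene LOC100513953 took 13.9% of heat stress replicate 1. Total fragment numbers were unknown. The spacing of the low values put the relative depth of the samples at 0.732 (heat stress replicate 1) to 1.16 (control replicate 2) of control replicate 1. Heat stress replicate 2 was at 0.850 and the NMN samples at 0.884 and 0.788, so all heated samples lay below both control samples in depth. The part of depth in the results was not tested.

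BTG4 had the highest FPKM of the 10 genes, and its FPKM was near the same in all 3 groups. It was measured at 42.9 and 55.3 FPKM in the control samples, at 55.2 and 50.3 FPKM in the heat-stressed samples, and at 54.3 and 48.5 FPKM with NMN. The group means were 49.1 ± 8.77, 52.8 ± 3.47 and 51.4 ± 4.13 FPKM (SD, n = 2 each), and the samples of all groups overlapped. Its mean FPKM was higher than that of 96.1% of the tested genes and ranked 183 among all genes. In the limma model of all tested genes, fitted on log2(FPKM + 1), the log2 fold change of heat stress against control was 0.11 (95% confidence interval -0.28 to 0.51, adjusted P = 0.681). For heat stress+NMN against heat stress the log2 fold change was -0.038 (-0.43 to 0.36, adjusted P = 0.919), and against control it was 0.075 (-0.32 to 0.47, adjusted P = 0.744). Differences within these intervals were not detectable with 2 samples a group. The sign of the first value was not stable. With the samples scaled to the same sum over nuclear genes, which moved the median of all tested genes by -0.27, it was -0.25. With LOC100513953, which took 13.9% of heat stress replicate 1, left out of that sum, the value was 0.075. Without control replicate 1 it was -0.067.

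The gene for BTG4 lies at chr9:39253116-39281327 on the minus strand of Sscrofa11.1. Its longest annotated coding transcript has 2308 bases, 307 of them 3′UTR. The last 150 bases of this transcript held both forms of the cytoplasmic polyadenylation element searched for, TTTTAT and TTTTAAT, which CPEB proteins read in oocytes to lengthen a poly(A) tail. The sites are printed 5′ to 3′ as transcript sense, with the element in capitals, because BTG4 was the only member with both forms.
BTG4, chr9:39253252-39253265: tgcTTTTAATtctt
BTG4, chr9:39253224-39253237: gaagTTTTATgtaa
The first element ended 140 bases and the second 112 bases before the annotated transcript end. Of 20784 coding transcript ends of the RefSeq annotation, 1.28% held both forms on the transcript strand and 20.6% held at least 1 of them, and the members with at least 1 were BTG4, CNOT3 and CNOT8. In the latter pair the element stood near the AATAAA polyadenylation signal, which is also in capitals.
CNOT3, chr6:55975628-55975653: atttatgAATAAAtagTTTTATatga
CNOT8, chr16:68329799-68329828: tatgtTTTTAATtttgtaaAATAAAgatgt
The CNOT3 element ended 4 bases and the CNOT8 element 32 bases before the transcript end. AATAAA stood in the last 150 bases of 53.2% of all ends and of 6 members. The annotated 3′UTR of TOB1 has 5 bases, so its window was mostly coding sequence. Neither AATAAA nor its variant ATTAAA was found in the windows of TOB1 and CNOT7. A missing element there cannot be read as missing from the mRNA. These are letter matches in annotated ends, and tail length was not measured.

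Of the CAF1-type nucleases, CNOT7 came next to BTG4 in level and CNOT8 lay below TOB1. CNOT7 (chr17:4934379-4950093) was measured at 21.0 and 15.5 FPKM in control, at 27.0 and 25.7 FPKM under heat stress and at 31.9 and 29.8 FPKM with NMN. Every heat-stressed sample was above every control sample, and every NMN sample was above every heat-stressed one. The group means were 18.3 ± 3.85, 26.4 ± 0.874 and 30.8 ± 1.50 FPKM (SD, n = 2 each). CNOT8 (chr16:68329785-68352020), its paralogue, was lower at 5.13 and 6.08 FPKM in control, 7.44 and 6.38 FPKM under heat stress and 7.07 and 6.94 FPKM with NMN. Both groups of heated oocytes were above the control samples for CNOT8, and they overlapped each other.

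The CCR4-type nucleases were lower than the CAF1-type in every sample. CNOT6 (chr2:78131236-78202518) was measured at 1.70 and 1.32 FPKM in control, 2.26 and 2.50 FPKM under heat stress and 3.14 and 3.17 FPKM with NMN. CNOT6L (chr8:73191721-73335779) was measured at 1.73 and 1.77 FPKM in control, 2.64 and 2.29 FPKM under heat stress and 2.98 and 3.26 FPKM with NMN. For both genes the 3 groups were ordered as for CNOT7, with no overlap between neighbouring groups. An order of this kind in all samples was found for 742 of the 4713 tested genes (15.7%), and the members among them were CNOT6, CNOT6L and CNOT7.

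Of the scaffold and its module, CNOT1 and CNOT2 were low, and CNOT3 was near the level of TOB2. CNOT3 (chr6:55975628-55993140) was measured at 3.77 and 2.95 FPKM in control, 2.20 and 3.45 FPKM under heat stress and 4.11 and 4.79 FPKM with NMN. Its NMN samples stood above all other samples, and the control and heat-stressed samples overlapped. CNOT2 (chr5:34470911-34548968) was between 0.247 and 0.522 FPKM in the 6 samples. CNOT1 (chr6:20271593-20372300) was at 0.133 and 0.164 FPKM in control, 0.191 and 0.207 FPKM under heat stress, and 0.0771 and 0.140 FPKM with NMN. These values of the scaffold gene did not overlap between heat stress and either heat stress+NMN or control, but lay under the level at which genes were tested.

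Of the other adaptors, TOB1 (chr12:27116579-27119906) was measured at 20.4 and 18.2 FPKM in control, 24.8 and 20.0 FPKM under heat stress and 18.6 and 22.0 FPKM with NMN. TOB2 (chr5:7086397-7098643) was measured at 4.74 and 3.21 FPKM in control, 2.89 and 4.14 FPKM under heat stress and 3.58 and 4.03 FPKM with NMN. The groups overlapped for both genes. By mean FPKM over the 6 samples, the order of the members was BTG4, CNOT7, TOB1, CNOT8, TOB2, CNOT3, CNOT6L, CNOT6, CNOT2 and CNOT1. Neighbours in this order overlapped in range for CNOT7 and TOB1, for TOB2 and CNOT3, for CNOT3 and CNOT6L, and for CNOT6L and CNOT6, and the other neighbours were apart in all 6 samples.

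**Figure D1:**
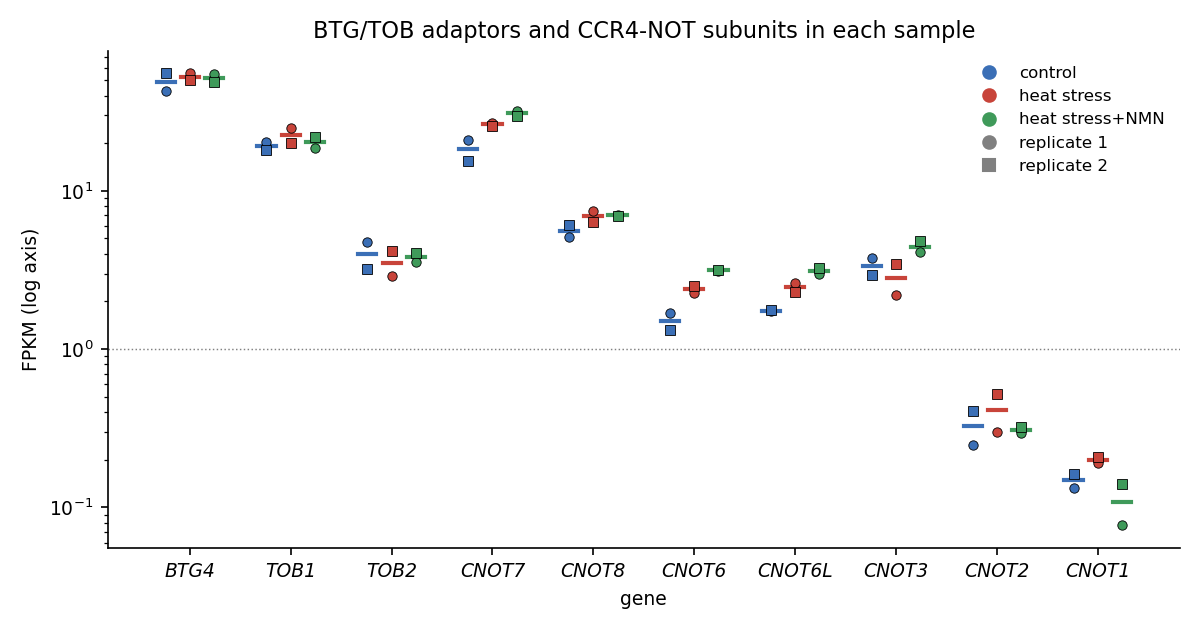
FPKM of the 10 members in each of the 6 samples, on a log axis, with circles and squares for replicates 1 and 2, a short bar for each group mean and a dotted line at the FPKM of 1 that the mean had to reach for a gene to be tested. BTG4 sits between 42.9 and 55.3 FPKM in all groups, while CNOT6, CNOT6L and CNOT7 are ordered control, heat stress, heat stress+NMN without overlap.

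Heat stress was compared with control to ask what the raised temperature did to these transcripts. CNOT7 was 1.44-fold higher in mean FPKM, a limma log2 fold change of 0.52 ± 0.16 (SE, adjusted P = 0.169). CNOT6 was 1.58-fold higher, or 0.43 ± 0.13 on the log2 scale (SE, adjusted P = 0.160). CNOT6L was 1.41-fold higher, or 0.33 ± 0.12 on the log2 scale (SE, adjusted P = 0.194). These 3 of the 8 tested members passed an unadjusted P of 0.05, all of them higher, where 22.8% of all tested genes passed (12.7% higher and 10.1% lower). After adjustment over all tested genes no member and no gene passed in limma, while 1074 genes had an unadjusted P under 0.05. Control and heat-stressed samples did not overlap, with heat stress higher, for CNOT6, CNOT6L, CNOT7 and CNOT8, as for 31.6% of the tested genes, and no member lay lower without overlap, as 23.2% did. The log2 fold change of CNOT8 was 0.26 (adjusted P = 0.296), that of CNOT3 was -0.20 (adjusted P = 0.575), that of TOB1 was 0.20 (adjusted P = 0.472) and that of TOB2 was -0.14 (adjusted P = 0.712). Without control replicate 2 none of the 3 passed, without heat stress replicate 1 CNOT6 alone passed, and without heat stress replicate 2 CNOT6L alone passed, which was the only 1 of the 6 fits with a sample left out in which CNOT6L passed. CNOT6L also did not pass with these 2 groups fitted alone, and none of the 3 passed with the samples scaled to the same nuclear sum. With LOC100513953 left out of that sum, CNOT7 alone passed.

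Heat stress+NMN was compared with heat stress to ask what NMN changed in heated oocytes. CNOT3 was 1.57-fold higher, a limma log2 fold change of 0.53 ± 0.20 (SE, adjusted P = 0.359), and was the 1 member with an unadjusted P under 0.05. Among all tested genes 13.6% had an unadjusted P under 0.05 (641 genes, 7.15% higher and 6.45% lower), and none passed after adjustment. The call of CNOT3 was lost when any sample other than heat stress replicate 2 was left out, and its log2 fold change was 0.29 without heat stress replicate 1. The log2 fold changes of the nucleases were 0.30 for CNOT6 (adjusted P = 0.379), 0.25 for CNOT6L (adjusted P = 0.384), 0.22 for CNOT7 (adjusted P = 0.509) and 0.021 for CNOT8 (adjusted P = 0.948). Samples did not overlap, with NMN higher, for CNOT3, CNOT6, CNOT6L and CNOT7, as for 35.9% of the tested genes. In the opposite direction 17.6% did not overlap, and of the members CNOT1, which was not tested, did not. TOB1 had a log2 fold change of -0.14 (adjusted P = 0.665) and TOB2 one of 0.10 (adjusted P = 0.823).

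Heat stress+NMN against control gave the largest differences of the nucleases. CNOT6 rose 2.08-fold in mean FPKM, a limma log2 fold change of 0.73 ± 0.13 (SE, adjusted P = 0.0246). CNOT7 rose 1.69-fold, or 0.74 ± 0.16 on the log2 scale (SE, adjusted P = 0.0345). CNOT6L rose 1.78-fold, or 0.58 ± 0.12 on the log2 scale (SE, adjusted P = 0.0303). These 3 of 8 tested members passed both thresholds, where 41.3% of all tested genes passed at an unadjusted P of 0.05 (25.6% higher) and 21.5% after adjustment (12.4% higher and 9.17% lower). Samples did not overlap, with NMN higher, for CNOT3, CNOT6, CNOT6L, CNOT7 and CNOT8, as for 43.5% of the tested genes. The log2 fold change was 0.28 for CNOT8 (adjusted P = 0.168), 0.32 for CNOT3 (adjusted P = 0.274), 0.065 for TOB1 (adjusted P = 0.776) and -0.035 for TOB2 (adjusted P = 0.914). Over all tested genes the median was itself 0.049 for heat stress against control, 0.078 for NMN against heat stress and 0.11 for NMN against control. The 3 comparisons share samples and are not independent of each other. An exact permutation test on 2 against 2 samples cannot give a P below 0.333, so single genes rest on the model of all tested genes, and the adjusted calls of CNOT6, CNOT6L and CNOT7 were all lost without control replicate 2 or either NMN replicate.

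**Figure D2:**
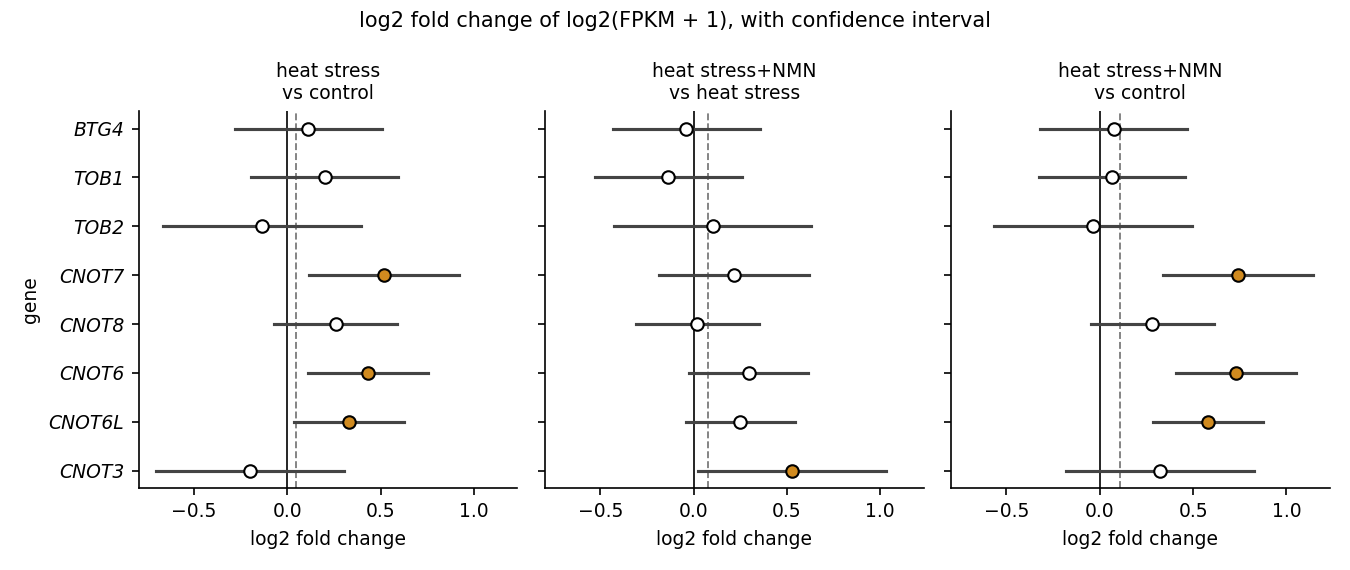
Log2 fold change of the 8 tested members in the 3 comparisons, on the log2(FPKM + 1) scale, with bars for the 95% confidence interval of the limma model and a dashed line for the median of all tested genes, and filled points for an unadjusted P under 0.05. CNOT6, CNOT6L and CNOT7 stand above 0 with their whole interval in both comparisons with control, and BTG4 is near 0 in all 3.

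Transcript base composition moved with these differences across all genes. With NMN against control, the median log2 fold change was 0.35 over the 943 tested genes of lowest GC content (up to 40.9%), 0.11 over those of middle GC content and -0.18 over those of highest. CNOT6 has a GC content of 35.2% and CNOT6L one of 38.3%, so both belong to the lowest class. In that class 47.8% of the other genes were called higher in this comparison and 31.5% in heat stress against control. CNOT7, with a GC content of 47.1%, belongs to the middle class, where 23.8% and 8.70% were called higher. Their longest transcripts also differ in length, at 6557 bases for CNOT6, 9339 for CNOT6L and 2238 for CNOT7. The trend on GC content and length was removed from each sample as one, so the part of each was not tested. That step was chosen after seeing the data. With the trend removed, CNOT6 had a log2 fold change of 0.23 (adjusted P = 0.222) in heat stress+NMN against control. CNOT6L had one of 0.13 (adjusted P = 0.501) in that comparison. Of the 3, CNOT7 alone then had an unadjusted P under 0.05, with a log2 fold change of 0.69 (adjusted P = 0.0634), and the same held in heat stress against control, where it was 0.50 (adjusted P = 0.264). CNOT6 was then at 0.088 (adjusted P = 0.715) and CNOT6L at 0.046 (adjusted P = 0.868) under heat stress against control. Before the trend was removed, the difference of CNOT7 was higher than that of 95.0% of the other genes of its class in heat stress+NMN against control. In the same comparison this share was 88.1% for CNOT6 and 76.8% for CNOT6L in their class. For NMN against heat stress it was 72.6% for CNOT7, and 96.0% for CNOT3 in the class of highest GC content. For CNOT3, at 60.1% GC, the log2 fold change of NMN against heat stress was 0.36 (adjusted P = 0.468) with the trend removed.

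**Figure D3:**
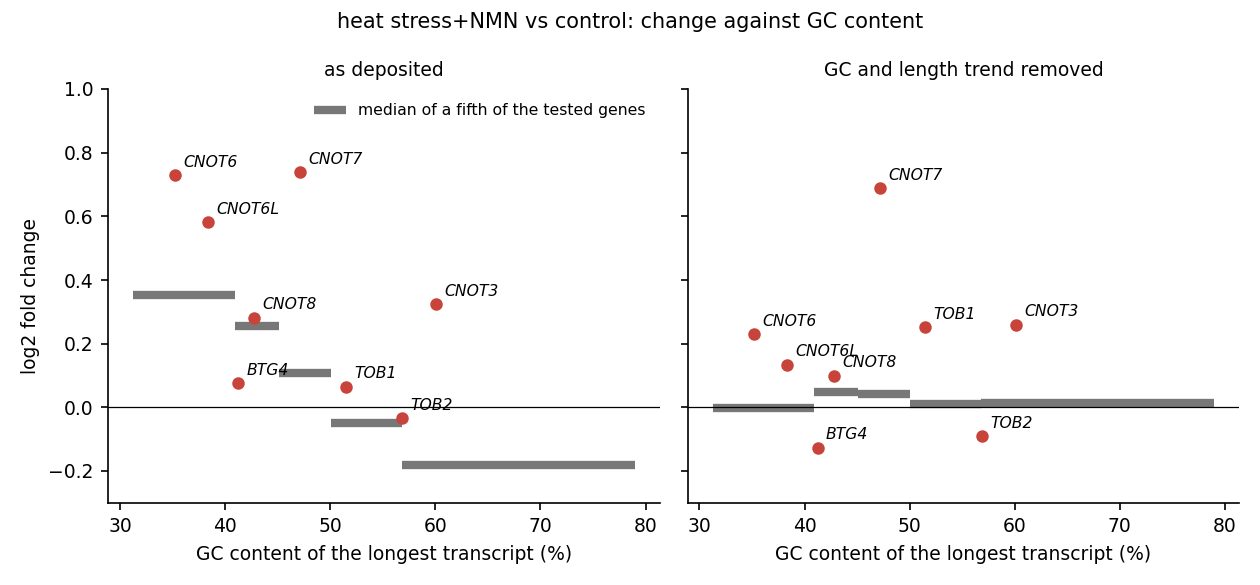
Log2 fold change of heat stress+NMN against control plotted against transcript GC content in percent, on the left from the deposited FPKM and on the right with the GC and length trend removed, with grey bars for the medians of 5 classes of tested genes and red points for the 8 tested members. On the left the medians fall from 0.35 to -0.18, and on the right CNOT6 and CNOT6L drop to 0.23 and 0.13 while CNOT7 is at 0.69.

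Ratios within a sample do not depend on scaling between samples. The ratio of CNOT6L to CNOT6 was 1.02 and 1.34 in control, 1.16 and 0.916 under heat stress and 0.951 and 1.03 with NMN, so the CCR4-type nucleases were at near equal levels and the groups overlapped. The ratio of CNOT8 to CNOT7 was 0.244 and 0.391 in control, 0.276 and 0.248 under heat stress and 0.222 and 0.233 with NMN. The NMN samples were below all other samples in this ratio (exact permutation P = 0.333 against either group, the smallest that 2 against 2 samples allow). The ratio of TOB2 to TOB1 ran from 0.116 to 0.232 and that of BTG4 to TOB1 plus TOB2 from 1.70 to 2.58, with overlap of all groups. Summed by role, the 4 nucleases came to 27.1 ± 3.42 FPKM in control, 38.1 ± 1.70 FPKM under heat stress and 44.1 ± 1.38 FPKM with NMN (SD, n = 2 each), most of it CNOT7. The adaptors BTG4, TOB1 and TOB2 summed to 68.0 and 76.6 FPKM in control, 83.0 and 74.5 FPKM under heat stress and 76.5 and 74.5 FPKM with NMN, which overlapped.

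**Figure D4:**
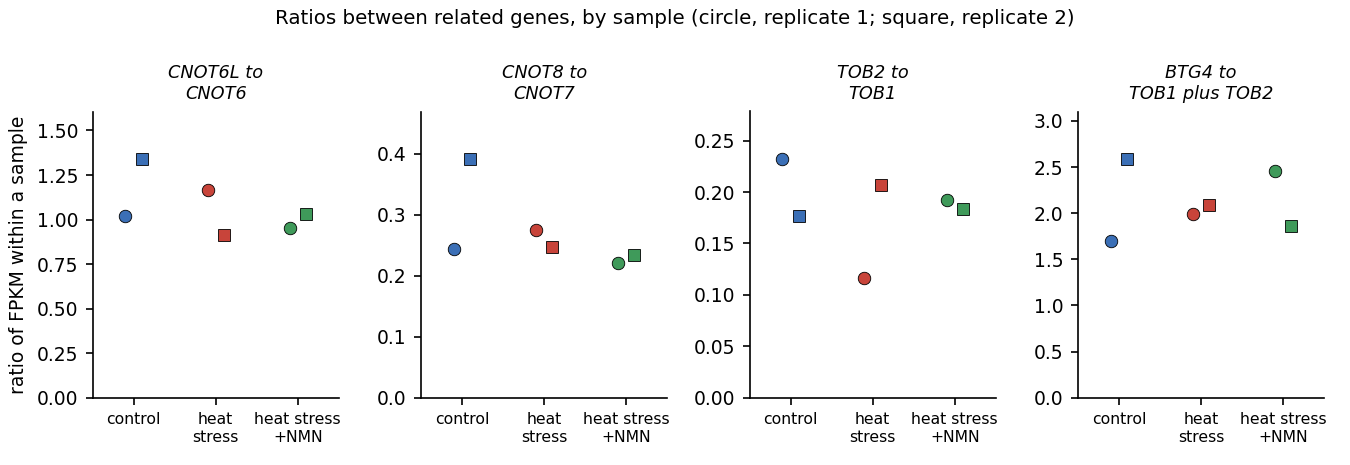
Ratios of FPKM between related members within each sample, with 1 panel a ratio, a linear axis from 0, and a circle and a square for replicates 1 and 2 of each group. CNOT8 to CNOT7 is lowest in both NMN samples, at 0.222 and 0.233, and the other ratios overlap between the groups.

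The members can share reads with other genes in ways the table does not resolve. CNOT6 and CNOT6L, CNOT7 and CNOT8, and TOB1 and TOB2 are paralogues, and the library kit named does not mark strand, so an overlapping gene on the opposite strand cannot be told apart. The deposited row of CNOT7 spans chr17:2028093-7355149, a locus merged with 28 other genes. On the opposite strand, VPS37A shares 462 bases of gene span with CNOT7 and was at 2.23 to 3.09 FPKM. MRPL1, which overlaps CNOT6L, reached at most 0.0540 FPKM, and LOC110259664, which overlaps CNOT6, was listed at 0 in every sample. LENG1 shares 1113 bases with CNOT3 and was at 0.272 to 1.64 FPKM, beside 2.20 to 4.79 FPKM for CNOT3. GEMIN5 shares 245 bases with CNOT8 and was at 0.0391 to 0.361 FPKM. C9H11orf88, which overlaps BTG4, reached at most 0.0552 FPKM.

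The wider pathway was described with 6 lists of 56 genes, 53 of them listed and 29 tested. In heat stress against control 3 of the 29 were called higher and 2 lower, in heat stress+NMN against heat stress 5 were higher and 1 lower, and in heat stress+NMN against control 7 were higher and 3 lower, with 5 and 2 of these after adjustment. Of all tested genes, 12.7% were called higher and 10.1% lower under heat stress against control, 7.15% and 6.45% for NMN against heat stress, and 25.6% and 15.7% for NMN against control. The 3 and 2 of 29 for heat stress against control and the 7 and 3 of 29 for NMN against control were not above that background. The 5 of 29 higher for NMN against heat stress were above it, in a comparison where no gene passed after adjustment. After adjustment, 12.4% of all tested genes were higher and 9.17% lower with NMN against control. These differences in share were not tested, and the lists were chosen with earlier results of these data known. The median log2 fold changes of the 29 genes were 0.096, 0.19 and 0.25, beside the 0.049, 0.078 and 0.11 of all tested genes. Of the other CCR4-NOT subunits, 3 of 5 were tested, and CNOT11 was the one called. It was measured at 7.61 and 7.38 FPKM in control, 4.92 and 5.54 FPKM under heat stress and 5.05 and 5.82 FPKM with NMN. Its log2 fold change against control was -0.45 under heat stress (adjusted P = 0.142) and -0.40 with NMN (adjusted P = 0.0666), and all heated samples lay below both control samples. With the GC and length trend removed these values were -0.34, still called, and -0.32, no longer called. CNOT4 and CNOT9 did not pass, and CNOT10 was at most 0.175 FPKM. Of the other BTG genes, BTG1 alone was tested, at 21.7 to 28.6 FPKM, and was not called. BTG2 lay under the level at which genes were tested. It was at 1.22 and 1.43 FPKM in control, 0.321 and 0.701 FPKM under heat stress and 0.733 and 0.855 FPKM with NMN. Its heated samples all lay below both control samples, and its NMN samples lay above the heat-stressed ones. BTG3 was at most 0.114 FPKM.

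In the list of other deadenylases, NOCT is a relative of the CCR4 type, and whether it acts as a deadenylase was not tested here. It was measured at 26.2 and 25.3 FPKM in control, 33.7 and 31.6 FPKM under heat stress and 42.1 and 37.0 FPKM with NMN. It rose with NMN against control by a log2 fold change of 0.60 (adjusted P = 0.0284), or 0.42 with the GC and length trend removed. PAN3, a subunit of the PAN2-PAN3 deadenylase, rose by 0.56 on the log2 scale in the same comparison (adjusted P = 0.0307). Of 10 tested RNA-binding recruiters of the complex, YTHDF3, an m6A reader, rose by 0.87 (adjusted P = 0.0237) and TNRC6A, a partner of Argonaute, rose by 0.56 (adjusted P = 0.0308) on the log2 scale with NMN against control. In the same comparison YTHDF1, another m6A reader, fell by 0.92 (adjusted P = 0.0272) and ZFP36L2, which binds AU-rich elements, fell by 1.05 (adjusted P = 0.0389) on the log2 scale. DCP2, the decapping enzyme, rose by 0.80 on the log2 scale (adjusted P = 0.0333). With the GC and length trend removed, these log2 fold changes were 0.35 for PAN3, 0.39 for YTHDF3, 0.26 for TNRC6A (no longer called), -0.75 for YTHDF1, -0.74 for ZFP36L2 and 0.38 for DCP2. Called refers here to the unadjusted P. In that fit CNOT7 had an unadjusted limma P of 0.00671 and an adjusted P of 0.0634. NOCT, PAN3, YTHDF3, TNRC6A, ZFP36L2 and DCP2 had higher unadjusted P than CNOT7, so none of them kept an adjusted P under 0.05. YTHDF1 had an unadjusted limma P of 0.00661 there, and its adjusted P is not given here. Between NMN and heat stress alone, the poly(A)-binding proteins PABPN1L and PABPC4 had log2 fold changes of 0.34 (adjusted P = 0.352) and 0.32 (adjusted P = 0.360). EDC4, a scaffold of decapping, had the lowest P of the list genes in that comparison. It was measured at 1.82 and 2.05 FPKM in control, 1.07 and 1.41 FPKM under heat stress and 2.26 and 2.04 FPKM with NMN, and so was low in the heat-stressed samples alone. Its log2 fold change was -0.40 for heat stress against control (adjusted P = 0.184) and 0.50 for NMN against heat stress (adjusted P = 0.288), both with an unadjusted P under 0.05, and 0.10 for NMN against control (adjusted P = 0.605). With the GC and length trend removed the first was -0.28, no longer called, and the second 0.37, still called.

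**Figure D5:**
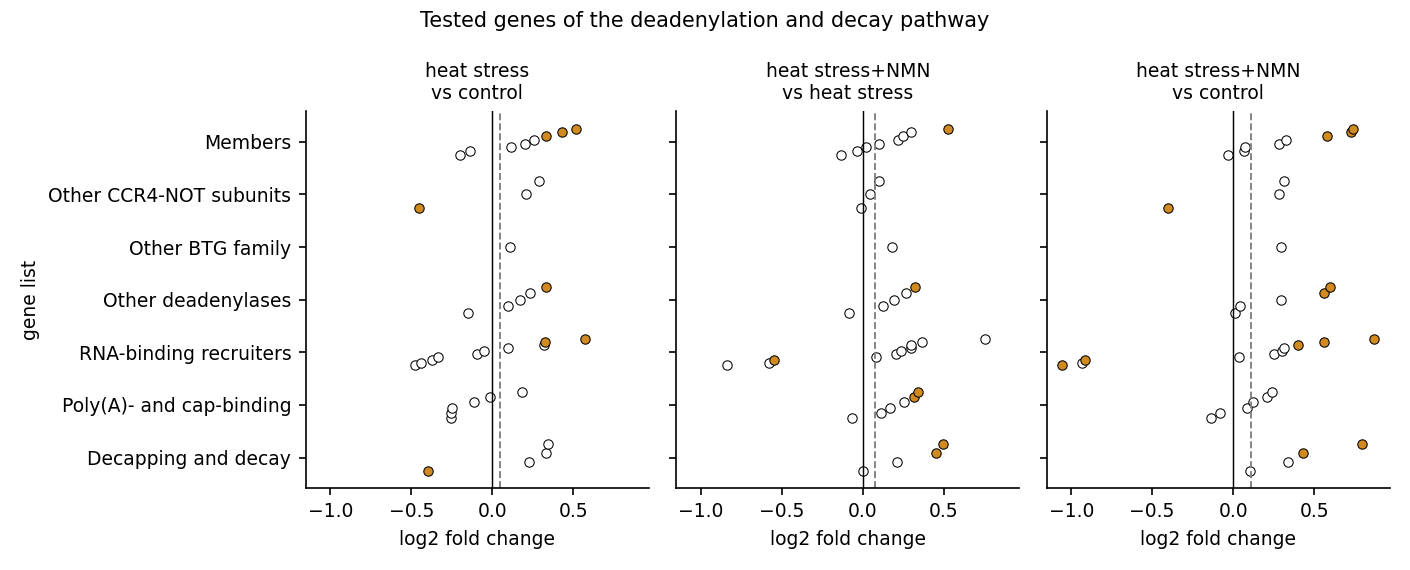
Log2 fold change of each tested gene of the 6 pathway lists and of the members in the 3 comparisons, with 1 point a gene, filled points for an unadjusted P under 0.05 and a dashed line for the median of all tested genes. In heat stress+NMN against control 7 of the 29 list genes are called higher and 3 lower, beside 3 of 8 members higher, where 25.6% of all tested genes are called higher and 15.7% lower.

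The genes most like BTG4 over the 6 samples, by Pearson's r of log2(FPKM + 1) with no test, were RFESD (r = 0.997), LOC110256462 (0.994), DYNC1I2 (0.978), LOC110255345 (0.975) and CALCOCO2 (0.961). An r of at least 0.9 was reached by 25 of 4712 genes. The 6 points share their libraries and their scaling, and the range of BTG4 was small, with control replicate 1 the lowest sample. Among the members, CNOT6 had an r of 0.93 with CNOT6L and 0.97 with CNOT7 over the same 6 samples. These were the highest values among the pairs of tested members, and the lowest was -0.91, for BTG4 and TOB2. CNOT6, CNOT6L and CNOT7 share the order of the groups given above, so their high r is not a separate result.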

How the data were processed

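The deposited table held FPKM of each gene in each of the 6 samples, which the authors made by trimming with cutadapt, alignment with tophat2 and quantification with Cufflinks 2.2.1 and Cuffnorm (the latter per the submitters' processing notes, which also name Cuffdiff). The labels describe mRNA isolation. How Cuffnorm scaled the samples was not given in the sources used here. The authors' own comparison columns (fold changes, P- and q-values) and their lists of group values were not used. Values were log2(FPKM + 1) transformed, which understates the change of low genes. The 4713 genes whose FPKM averaged 1 or more were fitted in limma 3.58.1 (R 4.3.3) as 1 model of the 3 groups, with a mean-variance trend, two-sided tests and Benjamini-Hochberg adjustment over all tested genes. The model was tested on simulated data. Called means an unadjusted P under 0.05. The members and lists were chosen with earlier results of these data known. All members were named, and list genes only where the unadjusted P was under 0.05 and the samples did not overlap. The genes most like BTG4, the genes without a call and the neighbours on the opposite strand were named after their values were seen. Without counts, depth was known only relative to control replicate 1. Alternatives were a pseudocount of 0.1, no minimum, a minimum of 5, quantile normalization, the same sum over nuclear genes, a replicate block, the compared groups alone and each sample left out. The same nuclear sum without LOC100513953, the same median and removal of the GC content and length trend (loess, span 0.5) were chosen after seeing the data. Transcript GC content, positions and sequences came from RefSeq on Sscrofa11.1, using the longest coding transcript. Motifs were searched on the transcript strand only.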

Additional observations from a re-analysis of the deposited data

How the results depend on the processing

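In heat stress against control, the 1074 genes called became 2388 with no minimum, 468 with a minimum mean FPKM of 5, 562 with the same nuclear sum and 648 to 1015 with a sample left out, and the 0 genes after adjustment became 84 with the same nuclear sum, 1 with that sum without LOC100513953, 1 with the GC and length trend removed and 0 to 1 with a sample left out. The 3 members called became 1 with the minimum of 5 (where CNOT6 and CNOT6L were not tested), 0 with the same nuclear sum, 1 with that sum without LOC100513953, 1 with the GC and length trend removed and 0 to 2 with a sample left out. In heat stress+NMN against heat stress, the 641 genes called became 1557 with no minimum, 266 with the minimum of 5, 269 with the same nuclear sum and 327 to 701 with a sample left out, and the 0 after adjustment became 38 with the same nuclear sum, 1 with that sum without LOC100513953 and 0 to 2 with a sample left out. The 1 member called, CNOT3, became 2 others (CNOT6 and CNOT6L) with no minimum, 1 other (CNOT6) with the compared groups alone, 0 with the minimum of 5, quantile normalization, the replicate block, the same nuclear sum without LOC100513953, the same median or the trend removed, and 0 to 1 with a sample left out. In heat stress+NMN against control, the 1948 genes called became 3700 with no minimum, 791 with the minimum of 5, 789 with the same nuclear sum and 1233 to 1941 with a sample left out. The 1015 after adjustment became 0 with no minimum, 546 with the minimum of 5, 281 with the same nuclear sum, 445 with the replicate block, 558 with the same nuclear sum without LOC100513953, 322 with the trend removed and 0 to 798 with a sample left out (0 without control replicate 2, 1 without either NMN replicate). The 3 members called became 1 with the minimum of 5, 1 (CNOT6) with the same nuclear sum and 1 (CNOT7) with the trend removed, and stayed at 3 with any sample left out. Those 3 after adjustment became 0 with no minimum, 1 with the minimum of 5, 0 with the same nuclear sum, 1 with the replicate block, 0 with the trend removed and 0 to 2 with a sample left out. With the minimum of 5, CNOT3, CNOT6 and CNOT6L were not tested in any comparison, so their calls were left out there by the filter. The cause of the other changes was not tested.

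With the replicate block, 937, 527 and 1815 genes were called in the 3 comparisons. Of the members, the block left CNOT6 and CNOT7 called under heat stress against control, as did the compared groups alone, and left CNOT7 called after adjustment with NMN against control. Same-numbered samples did not deviate together (correlations of -0.032, 0.0080 and -0.014), so their numbers were not taken as pairs. The share of calls that were higher was 55.7%, 52.6% and 62.0% in the 3 comparisons. It became 6.05%, 67.7% and 35.4% with the same nuclear sum, 42.2% with no minimum and 40.6% without LOC100513953 in the first, 40.5% with quantile normalization, 40.8% with the block and 36.8% with the trend removed in the second, and 45.0% with no minimum and 49.3% with the trend removed in the last.

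Some log2 fold changes that were not called changed sign. Under heat stress against control, BTG4 was at -0.25 with the same nuclear sum, -0.028 with the trend removed and -0.067 to 0.29 with a sample left out, CNOT3 at -0.44 to 0.037 and TOB2 at -0.36 to 0.088 with a sample left out, and CNOT8 at -0.055 and TOB1 at -0.15 with the same nuclear sum. For NMN against heat stress, BTG4 was at 0.34 with the same nuclear sum, 0.018 with that sum without LOC100513953 and -0.12 to 0.043 with a sample left out. CNOT8 was at -0.037 with quantile normalization, -0.0011 with the same median, -0.041 with the trend removed and -0.075 to 0.12 with a sample left out, TOB1 at 0.24 with the same nuclear sum and -0.28 to 0.014 with a sample left out, and TOB2 at -0.029 with the trend removed and -0.10 to 0.30 with a sample left out. For NMN against control, BTG4 was at -0.10 with quantile normalization, -0.13 with the trend removed and -0.10 to 0.26 with a sample left out, TOB1 at -0.083 with quantile normalization and -0.050 to 0.18 with a sample left out, and TOB2 at -0.26 to 0.19 with a sample left out. Over all members and alternatives, 305 values kept their direction and side of the threshold, 35 lost their call, 3 gained one and 29 changed sign. CNOT1 and CNOT2 were left out by the minimum FPKM. With no minimum neither was called, and CNOT1 had a log2 fold change of -0.11 for NMN against heat stress (adjusted P = 0.691 by limma).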
